A study of Homo sapiens with 21 samples.

Results

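The unfolded protein response was followed here through 33 genes of the endoplasmic reticulum (ER), picked by name: chaperones of the lumen, the calnexin and calreticulin cycle, disulfide isomerases and oxidases, the response's sensors and its target factor, the machinery of ER-associated degradation (ERAD) and the translocon. Expression was measured on Affymetrix HGU133 Plus 2.0 arrays, and 32 of the 33 genes, among 19775 genes in all, had a probe set assigned to that symbol alone. For SYVN1, the ERAD ubiquitin ligase, the 1 probe set also carried the symbol of a microRNA, and it was not read. The 32 genes had 81 probe sets, with more than 1 for 25 of them, and the brightest of a gene's probe sets, by its average within a cell line, stood for that gene.

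The series held 21 arrays in 7 groups of 3 replicates. In A549, a lung adenocarcinoma cell line, 4 groups (12 arrays) had received control siRNA or APE1 siRNA, each with no further treatment or with trichostatin A (TSA, an inhibitor of histone deacetylases) at 100 ng/ml for 4 h before harvest. In BEAS-2B, an immortalized line of normal bronchial epithelium, 3 groups (9 arrays) overexpressed by transient transfection wild type (WT) APE1, the K6R/K7R double lysine mutant (RR) or the mutant lacking the N-terminal extension (ND42). APE1, encoded by APEX1, is a DNA repair endonuclease that also acts in transcription and is acetylated on those lysines. The A549 cells were harvested 48 h after transfection per the labels, which place the TSA arrays in a separate set of experiments. The published methods give a later harvest for knockdowns, and which time applied to these arrays could not be settled. The BEAS-2B cells kept their own APE1, and no group lacked a construct, so each mutant was compared with WT. The published methods describe WT and ND42 in the same vector, and FLAG-tagged WT and RR in a different one. The labels differ from the methods on the vector, and which WT construct these arrays carried could not be settled. The part of vector or tag in the mutant differences was not tested. The values were log2 expression made separately for each cell line, so levels of the lines are given side by side and were not compared.

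In resting cells the chaperone BiP (HSPA5) holds the 3 sensors of the ER membrane inactive. When unfolded proteins accumulate, IRE1 (ERN1) splices the mRNA of XBP1, ATF6 is cut in the Golgi to release a transcription factor, and PERK (EIF2AK3) slows translation and favours ATF4. XBP1 and ATF6 then drive chaperones, oxidoreductases and ERAD genes through ER stress response elements in their promoters. Arrays read total mRNA levels of these genes and do not read XBP1 splicing, ATF6 cleavage or PERK activity.

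The elements themselves were looked for in RefSeq promoter windows (GRCh38.p14, 250 bases before to 50 after the start), which were listed for 30 of the 33 genes, in 37 windows. DERL1, DERL3 and PDIA3 had no window there. The ER stress response element (ERSE: CCAAT, 9 further bases, CCACG, on either strand) occurred in 0.0769% of 35116 windows of all genes and in a window of 8 of the 30 genes: HSPA5, HSP90B1, CRELD2, CALR, CANX, PDIA6, ERO1B and XBP1. ERSE-II (ATTGG, any base and CCACG, either strand) occurred in 0.0541% of all windows and in 3 of the 30, HYOU1, SDF2L1 and HERPUD1. The shorter parts alone were common, CCACG being in 38.1% and CCAAT in 34.6% of all windows. The windows of 8 genes are shown because these genes carry an element and differed in their calls below, HYOU1 being called in none. The whole HSPA5 window is given and, for the others, the elements with 20 bases on each side where the window reaches that far. Only exact matches to the 2 patterns were counted and marked, so elements that vary from them would be missed. Each sequence reads along the gene's own strand, 5′ to 3′, and capitals mark the element. Capitals that begin with CGTGG are elements on the opposite strand.
HSPA5 (chr9:125241294-125241593, minus strand): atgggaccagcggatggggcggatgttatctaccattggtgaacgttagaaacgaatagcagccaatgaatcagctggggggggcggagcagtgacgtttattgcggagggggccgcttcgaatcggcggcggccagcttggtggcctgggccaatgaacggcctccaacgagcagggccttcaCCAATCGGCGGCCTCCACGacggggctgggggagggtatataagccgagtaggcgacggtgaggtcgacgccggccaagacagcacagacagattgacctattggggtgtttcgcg
HSP90B1 (chr12:103930196-103930359, plus strand): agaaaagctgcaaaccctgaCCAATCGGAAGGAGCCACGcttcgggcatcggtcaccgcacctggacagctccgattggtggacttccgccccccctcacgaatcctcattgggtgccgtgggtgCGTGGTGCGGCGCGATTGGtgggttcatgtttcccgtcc
CALR (chr19:12938364-12938422, plus strand): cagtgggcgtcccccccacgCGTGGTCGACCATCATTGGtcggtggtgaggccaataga
ERO1B (chr1:236282163-236282208, minus strand): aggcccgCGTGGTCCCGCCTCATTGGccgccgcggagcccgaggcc
XBP1 (chr22:28800583-28800641, minus strand): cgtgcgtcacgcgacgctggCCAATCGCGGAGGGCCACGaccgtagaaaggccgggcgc
PDIA6 (chr2:10812833-10812891, minus strand): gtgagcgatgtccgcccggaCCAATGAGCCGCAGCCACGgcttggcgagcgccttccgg
SDF2L1 (chr22:21642094-21642144, plus strand): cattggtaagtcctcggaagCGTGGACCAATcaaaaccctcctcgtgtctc
HYOU1 (chr11:119057254-119057410, minus strand): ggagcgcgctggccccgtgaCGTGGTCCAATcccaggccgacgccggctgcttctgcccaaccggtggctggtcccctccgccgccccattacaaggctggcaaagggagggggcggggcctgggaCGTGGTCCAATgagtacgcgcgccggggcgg
HSP90B1 and HYOU1 carried a pair of elements each.

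**Figure D1:**
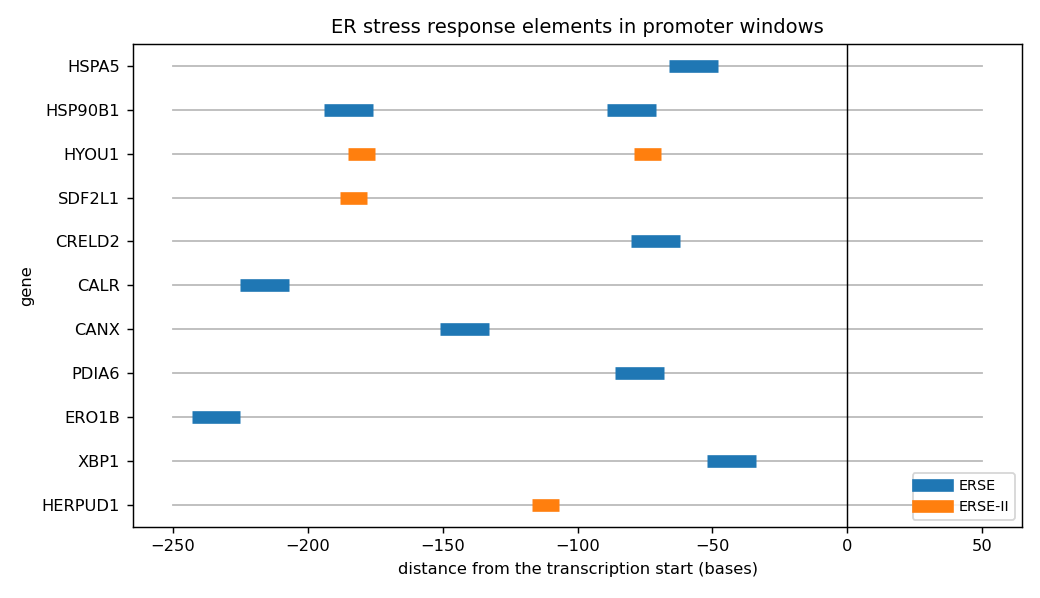
Position of the ER stress response elements, in bases from the transcription start, in the RefSeq windows of 11 genes (grey lines, 250 bases before to 50 after the start). Blue bars are ERSE and orange bars ERSE-II. For CANX, which had an element in more than 1 overlapping window, 1 element is drawn.

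One array stood apart before any comparison. APE1 siRNA replicate 2, without TSA, correlated with its group at no more than 0.896, while every other array reached at least 0.996 with an array of its own group. Its values were compressed (SD over probe sets of 1.66, against 1.87 to 2.10 on the other 20 arrays), and the 3′ minus 5′ difference of the actin control probe sets, a sign of RNA degradation, was 6.08 against 0.13 to 1.05. Of the ER genes, 13 of 32 (40.6%) lay more than 1 log2 unit below the mean of replicates 1 and 3 and 0 lay above, against 16.1% below and 3.59% above for all genes. The distance was -5.35 log2 units for PDIA3, -3.94 for HSPA5, -3.68 for DNAJC3, -3.60 for DNAJB11 and -3.32 for CALR, and -0.02 for SEC61A1. The A549 counts are therefore given with all arrays and again without this array, as are the values of single genes where leaving it out changed the call or moved the value by more than 1.5 times. The 32 genes were brighter than most, at a median percentile of 89.2 among all genes in A549 and 88.2 in BEAS-2B. The part of brightness in the count of 13 and in the shares of calls below was not tested.

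**Figure D2:**
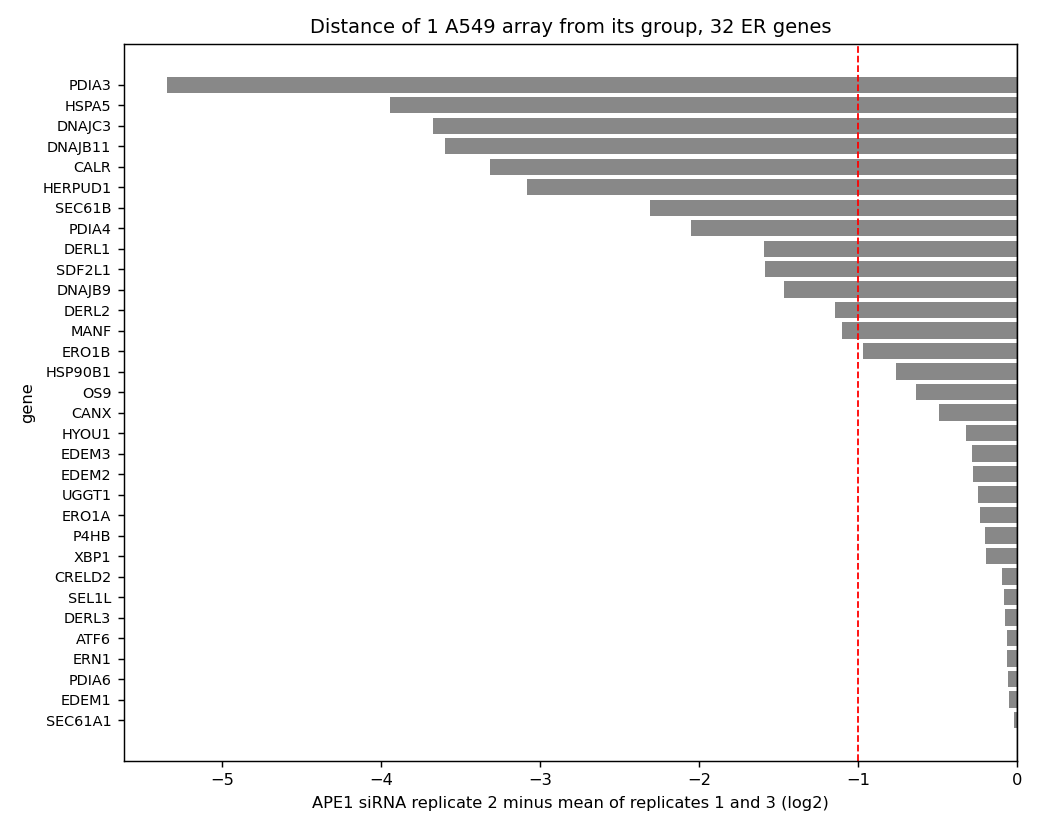
Distance of the APE1 siRNA replicate 2 array (no TSA) from the mean of replicates 1 and 3 of its group, in log2 units, for 32 ER genes sorted by distance. The dashed line marks -1, which 13 genes lie beyond.

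Other measures moved with the groups. The spiked control bioB read 6.74 to 6.95 on the 6 TSA arrays and 8.36 to 8.57 on the 5 other untreated A549 arrays, with replicate 2 at 6.92, so TSA and the handling of the arrays cannot be told apart by this measure. The 3′ minus 5′ difference of actin was 0.13 to 0.35 with control siRNA and 0.54 to 0.87 with control siRNA and TSA. It was 0.58 and 0.43 on APE1 siRNA replicates 1 and 3, 6.08 on replicate 2, and 0.90 to 1.05 with APE1 siRNA and TSA. Its part in the TSA results was not tested. The 3′ minus 5′ difference of GAPDH was 0.57 to 2.06 in APE1 siRNA and 0.47 to 0.71 in APE1 siRNA with TSA, against 0.03 to 0.16 and 0.04 to 0.12 in the matching control siRNA groups, and its part in the siRNA results was not tested. In both lines the epithelial keratins KRT8 and KRT18 were read well above the array medians (6.361 to 6.445 in A549, 5.603 to 5.697 in BEAS-2B), at means of 8.50 and 11.2 in A549 and 10.3 and 11.6 in BEAS-2B. Another keratin of that list, KRT19 (5.48 and 5.10), and EPCAM (4.78 and 5.51) lay below those medians in both. So did the leukocyte marker PTPRC (4.65 and 4.28) and the endothelial marker CDH5 (4.31 and 4.29). Other members of those lists read above the medians: CD3E (7.59 and 6.26), CD14 (6.64 and 6.90), PECAM1 (7.39 and 6.39) and VWF (6.75 and 5.87). CDH1 read 5.40 in A549 and 6.28 in BEAS-2B. The fibroblast marker COL1A1 read 10.4 in A549 and 12.5 in BEAS-2B.

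APEX1 checked the siRNA labels. It read 12.20, 12.24 and 12.14 with control siRNA and 10.05, 8.43 and 10.18 with APE1 siRNA, and the groups did not overlap. It fell 6.24-fold without TSA (log2 fold change -2.64, SE 0.36, adjusted p = 0.00222, limma) and 4.81-fold with TSA (-2.26, adjusted p = 0.00482). In BEAS-2B it differed from WT by 0.00 in RR and -0.17 in ND42, with neither called, and the WT arrays ranged from 10.09 to 11.02. A call throughout is an adjusted p under 0.05 from limma over all probe sets with a difference of at least 25% (0.32 on the log2 scale, the fold minimum).

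APE1 siRNA raised 3 of the 32 ER genes, and the same 3 with and without TSA: the sensor genes ATF6 and ERN1, and ERO1A, the oxidase that recharges protein disulfide isomerase. None of the 32 was called lower. Among all genes 1.85% were higher and 3.09% lower without TSA, and 1.91% higher and 3.37% lower with TSA, so the 3 higher calls are a larger share than the background and rest on few genes. The median of the 32 was -0.22 without TSA against -0.03 for all genes, and 0.04 against 0.02 with TSA. Without APE1 siRNA replicate 2 the first of these medians was 0.04, and 20 of 32 genes lay above 0.

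ATF6 read 9.13, 9.05 and 9.10 with control siRNA and 9.70, 9.64 and 9.71 with APE1 siRNA, replicate 2 included. With TSA it read 9.77, 9.78 and 9.71 in control siRNA and 10.41, 10.29 and 10.34 in APE1 siRNA. All APE1 siRNA arrays lay above their controls on both occasions. The rise was 0.59 on the log2 scale without TSA (SE 0.06, 1.51-fold, adjusted p = 0.000248), and with TSA it was 0.60 (adjusted p = 0.000181).

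ERN1, the gene of the IRE1 kinase and ribonuclease, read 7.27, 7.31 and 7.17 in control siRNA against 7.95, 7.80 and 7.79 in APE1 siRNA. With TSA it read 8.20, 8.22 and 8.34 against 8.72, 8.94 and 8.76. The groups were again separate in both settings, with log2 fold changes of 0.60 (SE 0.08, adjusted p = 0.00201) and 0.56 (SE 0.08, adjusted p = 0.00274). ERO1A had the largest siRNA difference among the called genes. It read 9.71, 9.82 and 9.90 in control siRNA against 10.61, 10.39 and 10.64 in APE1 siRNA, and 9.83, 9.78 and 9.85 against 10.91, 10.72 and 10.88 with TSA. It rose by 0.74 without TSA (SE 0.09, adjusted p = 0.000895) and by 1.02 with TSA (2.03-fold, adjusted p = 9.67e-05).

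These calls were made at the probe set read for each gene and were not shared by the genes' other probe sets on all arrays. Without TSA the others read -0.38, 0.23 and 0.40 for ATF6, -0.30 and -0.01 for ERN1 and 0.05 and 0.26 for ERO1A, none called. Without APE1 siRNA replicate 2, ATF6 was higher at 3 of its 4 probe sets (0.61, 0.61 and 0.55 without TSA, 0.60, 0.49 and 0.53 with TSA), while the other probe sets of ERN1 remained uncalled. ERO1A was called at 1 further probe set with TSA (0.40, adjusted p = 0.0139) and at none without.

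Without that array 5 genes were higher and 0 lower without TSA (all genes: 4.86% higher, 4.35% lower), and 3 higher and 1 lower with TSA (4.19% and 6.42%). The 3 calls above remained in both. DNAJC3, the cochaperone P58IPK that inhibits PERK, joined them at 0.36 (SE 0.07, adjusted p = 0.00767) and ERO1B, a second ER oxidase, at 0.38 (adjusted p = 0.00148), both without TSA. HSP90B1, the ER Hsp90 GRP94, was lower with TSA (-0.60, SE 0.17, adjusted p = 0.0321): it read 10.52, 11.23 and 10.33 in control siRNA and 9.99, 10.23 and 10.05 in APE1 siRNA, with control replicate 2 the highest. Without that control array its difference was -0.33. With all arrays none of DNAJC3, ERO1B and HSP90B1 was called here. The DNAJC3 means without TSA were then 9.27 with control siRNA and 8.40 with APE1 siRNA, the opposite direction. For ERO1B they were 7.66 and 7.71.

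HSPA5 was not called for siRNA on either occasion. It read 12.21, 12.20 and 12.23 with control siRNA, 12.23, 8.32 and 12.29 with APE1 siRNA, 12.84, 12.75 and 12.69 with TSA and 12.66, 12.58 and 12.57 with both, so that the difference without TSA was -1.27 (SE 0.83, adjusted p = 0.486) on all arrays and 0.05 without replicate 2. With TSA it was -0.15. DNAJB9, the BiP cochaperone ERdj4, differed by -0.49 and by 0.00 without the array, HERPUD1, an ERAD scaffold, by -1.16 and -0.13, SDF2L1, a partner of ER J proteins, by -0.60 and -0.07, HSP90B1 by -0.34 and -0.09, and XBP1 by -0.14 and -0.07, none called. With TSA DNAJB9, HERPUD1, SDF2L1 and XBP1 differed by 0.17, -0.14, 0.04 and -0.01.

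**Figure D3:**
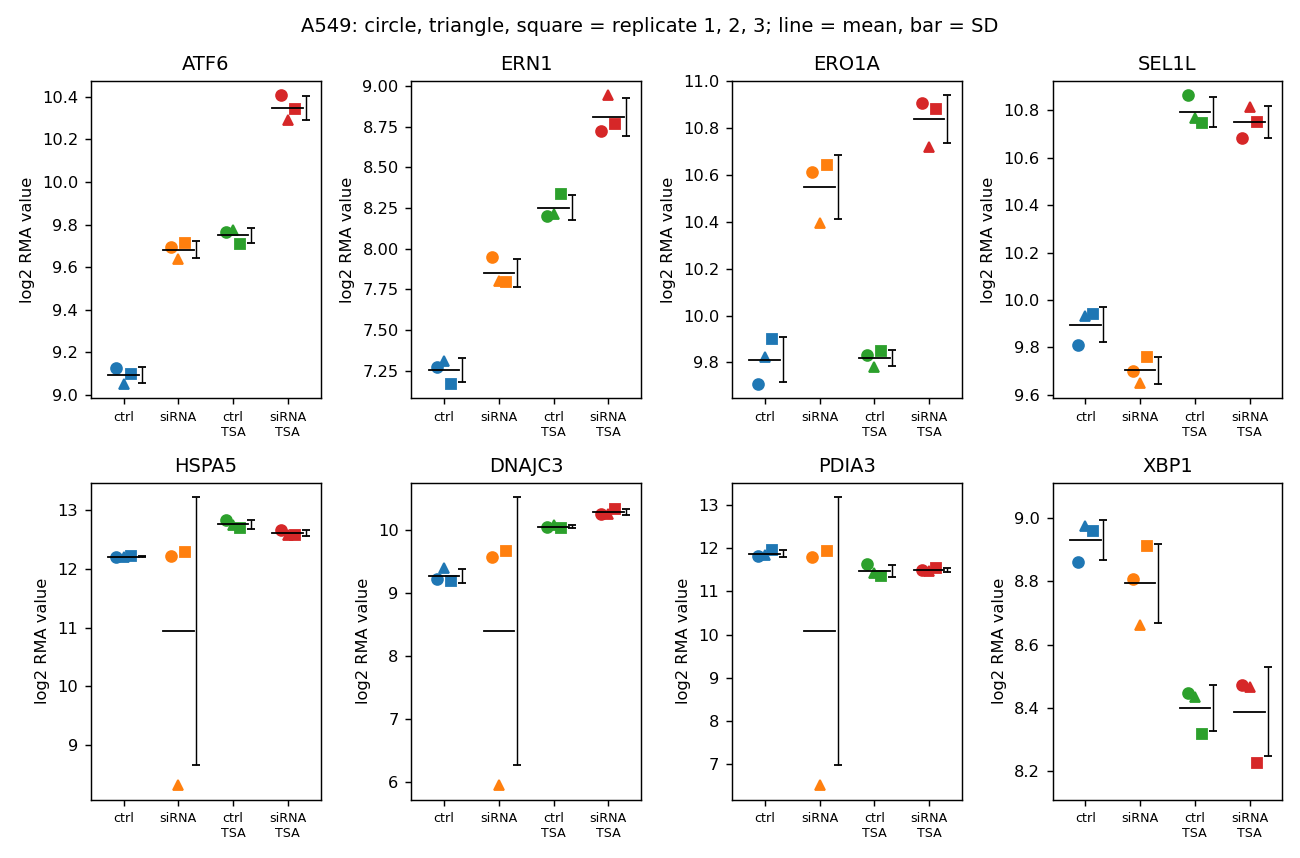
log2 RMA values of 8 ER genes on the 12 A549 arrays, by group (ctrl, control siRNA; siRNA, APE1 siRNA; without or with TSA). Symbols are single arrays, the horizontal line is the group mean and the bar its SD over 3 arrays; the vertical axes differ and do not start at 0. The triangle of the second group is the array that stood apart, at 8.32 for HSPA5, 5.95 for DNAJC3 and 6.52 for PDIA3.

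TSA moved more of the genes. In control siRNA cells 7 of 32 were higher and 2 lower, against 11.9% and 8.94% of all genes, and in APE1 siRNA cells 6 were higher and 2 lower, against 15.3% and 9.77%. The shares of the ER genes were therefore above the background for higher calls in control siRNA cells and near it in APE1 siRNA cells and for lower calls. The arrays of these 2 comparisons are not shared. In both, 6 genes were higher (85.7% of the 7 and 100.0% of the 6), namely SEL1L, ERN1, ERO1B, ATF6, EDEM1 and UGGT1. XBP1 and PDIA6 were lower in both. How many of all genes were called in both was not counted. The median of the 32 was 0.20 in control siRNA cells (all genes -0.04) and 0.54 in APE1 siRNA cells (all genes 0.01), the latter falling to 0.21 without APE1 siRNA replicate 2.

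SEL1L, the adaptor that couples substrates to the ERAD ligase, read 9.81, 9.93 and 9.94 in control siRNA cells and 10.86, 10.77 and 10.75 after TSA. In APE1 siRNA cells it went from 9.70, 9.65 and 9.76 to 10.68, 10.82 and 10.75. It rose by 0.90 (SE 0.07, 1.86-fold, adjusted p = 7.24e-06) and 1.05 (2.07-fold, adjusted p = 1.99e-06), the smallest adjusted p values among the 32 in both comparisons, and 2 of its other 3 probe sets were called higher in each. EDEM1, a lectin-like mannosidase that hands glycoproteins to ERAD, rose by 0.67 (adjusted p = 3.63e-05) and 0.49 (adjusted p = 0.000266). EDEM3 of the same family rose by 0.63 (adjusted p = 0.00753) in control siRNA cells and differed by 0.26 in APE1 siRNA cells, and this difference of differences was not called (-0.37, SE 0.19, adjusted p = 0.801). Without APE1 siRNA replicate 2 these were 0.16 and -0.47, also not called.

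Of the sensors, ERN1 rose by 1.00 (SE 0.08, 2.00-fold, adjusted p = 1.24e-05) in control siRNA cells and 0.96 (1.95-fold, adjusted p = 1.28e-05) in APE1 siRNA cells. ATF6 rose by 0.66 in each (adjusted p = 1.92e-05 and 1.42e-05), and another of its probe sets by 1.26 and 1.52. The sensor genes thus stood highest where siRNA and TSA were combined, ATF6 at 10.29 to 10.41 against 9.05 to 9.13 in untreated control siRNA cells. XBP1, their target factor, went the other way. It read 8.86, 8.98 and 8.96 without TSA and 8.45, 8.43 and 8.32 with TSA in control siRNA cells, a fall by 0.53 (SE 0.09, adjusted p = 0.00173), and fell by 0.40 (adjusted p = 0.00775) in APE1 siRNA cells. Its other probe set read 0.31 and 0.35, not called.

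Among the oxidoreductases ERO1B rose by 0.91 (SE 0.21, adjusted p = 0.0112) and 1.05 (adjusted p = 0.00449): it read 7.64, 7.70 and 7.63 before and 8.58, 8.58 and 8.55 after TSA in control siRNA cells, with no overlap. In APE1 siRNA cells it read 8.01, 7.06 and 8.06 before and 8.71, 8.81 and 8.78 after, and the rise was 0.73 without replicate 2. PDIA6 fell by 0.35 (adjusted p = 0.00422) and 0.41 (adjusted p = 0.00144), with 12.08, 12.05 and 12.26 before and 11.82, 11.71 and 11.80 after TSA in control siRNA cells. None of its other 3 probe sets was called with all arrays, and averaging its probe sets gave 0.23 in APE1 siRNA cells. Without replicate 2 a second probe set was lower (-0.54 and -0.63). UGGT1, the glucosyltransferase that senses misfolded glycoproteins, rose by 0.42 (adjusted p = 0.00356) and 0.54 (adjusted p = 0.00063). With all arrays none of the other probe sets of UGGT1 (4), ERN1 (2) or ERO1B (1) was called in either comparison. In control siRNA cells 3 of 8 called genes with further probe sets were called in the same direction at one of them, and 2 of 7 in APE1 siRNA cells. There, 6 and 9 uncalled genes in turn were called at a probe set that was not read.

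Without APE1 siRNA replicate 2 the spread of the fit was smaller and 12 genes were higher and 3 lower in each comparison. Among all genes 16.4% were then higher and 14.4% lower in control siRNA cells, and 17.2% and 16% in APE1 siRNA cells. All calls made with the full set remained, and the luminal chaperones joined them: 4 of the 9 chaperones were higher in control siRNA cells and 5 in APE1 siRNA cells, against 0 with all arrays. In both, 10 genes were higher and 3 lower, the added ones being HSPA5, DNAJC3, DNAJB11 and CALR (higher) and PDIA3 (lower). The matching overlap over all genes was not counted here either.

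HSPA5 rose after TSA by 0.55 (SE 0.06, adjusted p = 7.17e-06) in control siRNA cells and 0.35 (SE 0.07, adjusted p = 0.00104) in APE1 siRNA cells. Its other probe set rose by 1.59 and 1.61 with all arrays and by 1.59 and 1.46 without that one, called each time. DNAJC3 read 9.23, 9.40 and 9.19 before and 10.05, 10.09 and 10.03 after TSA in control siRNA cells (0.79, adjusted p = 6.83e-07), and rose by 0.66 (adjusted p = 1.02e-05) in APE1 siRNA cells. DNAJB11, the BiP cochaperone ERdj3, rose by 0.53 and 0.42, and the lectin chaperone calreticulin (CALR) by 0.33 and 0.49. HSP90B1 rose in control siRNA cells (0.61, adjusted p = 0.0119, with the array of replicate 2 at 11.23 the highest and a difference of 0.34 without that array) and differed by 0.10 in APE1 siRNA cells, while DNAJB9 (0.34) and SDF2L1 (0.40) were called only in the latter, where their values in control siRNA cells were 0.18 and 0.28. PDIA3, the isomerase of the calnexin cycle, fell by 0.41 (11.82, 11.85 and 11.95 before, 11.62, 11.42 and 11.35 after TSA in control siRNA cells). In APE1 siRNA cells without replicate 2 it fell by 0.37. HERPUD1 differed by 0.25 and 0.24 (adjusted p = 0.00497 and 0.0147), under the fold minimum. With all arrays the 5 genes fixed by name beside XBP1 were uncalled: in control siRNA and APE1 siRNA cells in turn HSPA5 differed by 0.55 and 1.66, HSP90B1 by 0.61 and 0.36, DNAJB9 by 0.18 and 0.83, HERPUD1 by 0.25 and 1.27 and SDF2L1 by 0.28 and 0.92. DNAJC3, DNAJB11, CALR and PDIA3 were also uncalled with all arrays. Their means in APE1 siRNA cells before and after TSA were then 8.40 and 10.29, 8.93 and 10.55, 9.82 and 11.41, and 10.085 and 11.50. PDIA3 thus went up there with all arrays and down without replicate 2.

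Read against the elements shown above, the 8 genes with an ERSE went both ways after TSA. Without replicate 2, HSPA5, HSP90B1, CALR and ERO1B were higher in control siRNA cells, XBP1 and PDIA6 lower, and CANX (-0.04) and CRELD2 (0.22, adjusted p = 0.0162, under the fold minimum) uncalled. Of the 3 with ERSE-II, SDF2L1 was called in APE1 siRNA cells and HYOU1, with its pair of elements, read 10.13 to 10.31 on 11 of the 12 A549 arrays and 9.87 on the array that stood apart. SEL1L, ERN1 and ATF6, which also rose, had neither element in their windows.

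The difference between the TSA responses of the siRNA groups was tested directly. No gene of the 32 was called, with 0.0202% of all genes higher and 0.101% lower, and without replicate 2 also none, with 0.405% and 1.4%. At an unadjusted p under 0.05 there was 1 of 32 (ERO1A, 0.28) with all arrays and 3 without the array, and eBayes with trend and robust settings also called 0. The difference was 1.11 for HSPA5 (SE 1.18) and -0.20 without replicate 2, -0.26 and -0.51 for HSP90B1, 0.65 and 0.16 for DNAJB9, 1.01 and -0.02 for HERPUD1, 0.64 and 0.11 for SDF2L1 and 0.13 and 0.06 for XBP1.

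In BEAS-2B the ER genes were compared between mutant and WT APE1. In RR 8 of 32 were higher and 2 lower, against 14.1% and 11.9% of all genes, and in ND42 5 were higher and 1 lower, against 10.3% and 7.5%. The higher share was above the background in both and the lower share below it. The medians were 0.16 and 0.11, with all genes at -0.01 and -0.00. Both comparisons used the same WT arrays. Leaving out WT replicate 3 left 5 calls in each (PDIA4, SEL1L, MANF, EDEM3 and ERN1 were lost in RR and EDEM2 in ND42), and leaving out WT replicate 2 gave 12 for RR and 11 for ND42, so the counts turned on these arrays.

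The 5 genes called higher in both mutants were UGGT1, OS9, EDEM2, PDIA3 and ATF6. UGGT1 read 9.09, 9.09 and 9.01 in WT, 9.69, 9.65 and 9.69 in RR and 9.65, 9.62 and 9.70 in ND42, with no overlap. Its log2 fold change was 0.61 (SE 0.05, 1.53-fold, adjusted p = 2.12e-05) in RR and 0.60 (adjusted p = 3.01e-05) in ND42, and a second probe set was higher by 0.45 and 0.43. OS9, a lectin that delivers glycoproteins to SEL1L, read 9.32, 9.39 and 9.27 in WT, 9.80, 9.95 and 9.82 in RR and 9.83, 9.84 and 9.74 in ND42. It was higher by 0.53 (adjusted p = 0.000162) and 0.48 (adjusted p = 0.000376), and its other probe set by 0.60 and 0.54. EDEM2, which starts mannose trimming, read 7.77, 7.91 and 7.54 in WT, 8.28, 8.27 and 8.16 in RR and 8.17, 8.07 and 8.07 in ND42 (0.50, adjusted p = 0.00184, and 0.36, adjusted p = 0.0141). Without WT replicate 3 the ND42 difference was 0.26, under the fold minimum, and the call was lost. PDIA3 read 11.76 to 11.81 on the WT arrays and 12.09 to 12.20 on all mutant arrays (0.37, adjusted p = 0.000458, and 0.36, adjusted p = 0.000761).

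The sensors diverged. ATF6 was higher by 0.43 (SE 0.06, adjusted p = 0.000501) in RR and 0.44 (adjusted p = 0.000557) in ND42, with 8.90, 8.93 and 8.78 in WT, 9.38, 9.28 and 9.24 in RR and 9.36, 9.29 and 9.28 in ND42. A second probe set was also higher (0.49 and 0.40), but another one was lower (-0.47 and -0.38, both called), so the direction of ATF6 depends on the probe set. ERN1 was lower, at 6.71, 6.63 and 6.87 in WT, 6.27, 6.45 and 6.36 in RR and 6.50, 6.25 and 6.21 in ND42. It differed by -0.38 (SE 0.09, adjusted p = 0.0104) and -0.42 (adjusted p = 0.00923), and a second probe set by -0.49 and -0.47, both called. XBP1 differed by -0.02 in each at the probe set read, with the other probe set higher in RR (0.68).

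PDIA4 (0.37), SEL1L (0.36) and MANF (0.34), an ER-resident secreted factor, were called higher in RR. Their ND42 values were 0.29, 0.23 and 0.31 and missed the threshold or the fold minimum. EDEM3 was lower in RR (-0.33, adjusted p = 0.00904) and at -0.31 in ND42 (adjusted p = 0.0183), just under the fold minimum. None of these 4 was called between the mutants. ND42 against RR gave 0 calls among the 32 and among all genes (0% higher, 0% lower). It gave 0 of the 32 at an unadjusted p under 0.05, also with trend and robust settings. SEL1L still read lower on all ND42 arrays than on all RR arrays, at means of 8.91 and 9.04. SEL1L's other 3 probe sets read -0.26, -0.05 and -0.25 in RR, none called.

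HSPA5 itself was slightly lower in both mutants: 11.93, 11.91 and 11.98 in WT, 11.66 to 11.72 in RR and 11.64 to 11.71 in ND42, without overlap. The difference of -0.25 (SE 0.05, adjusted p = 0.00306) and -0.26 (adjusted p = 0.00317) was under the fold minimum, and the other probe set read -0.28 and -0.31, not called. HSP90B1 differed by 0.25 and 0.24, DNAJB9 by 0.11 and 0.02, HERPUD1 by 0.15 and 0.11 and SDF2L1 by -0.11 and -0.06, none called. Some uncalled genes were higher at other probe sets: P4HB, protein disulfide isomerase itself, by 0.87 and 0.66 in RR and 0.73 and 0.60 in ND42 against 0.18 and 0.12 at the probe set read, and CALR by 0.88 and 0.53 in RR and 0.82 and 0.52 in ND42 against 0.22 and 0.29. In all, 5 of the 8 called RR genes with further probe sets were called in the same direction at one of them and 1 (ATF6) in the opposite direction, and 11 uncalled genes were called at a probe set that was not read.

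**Figure D4:**
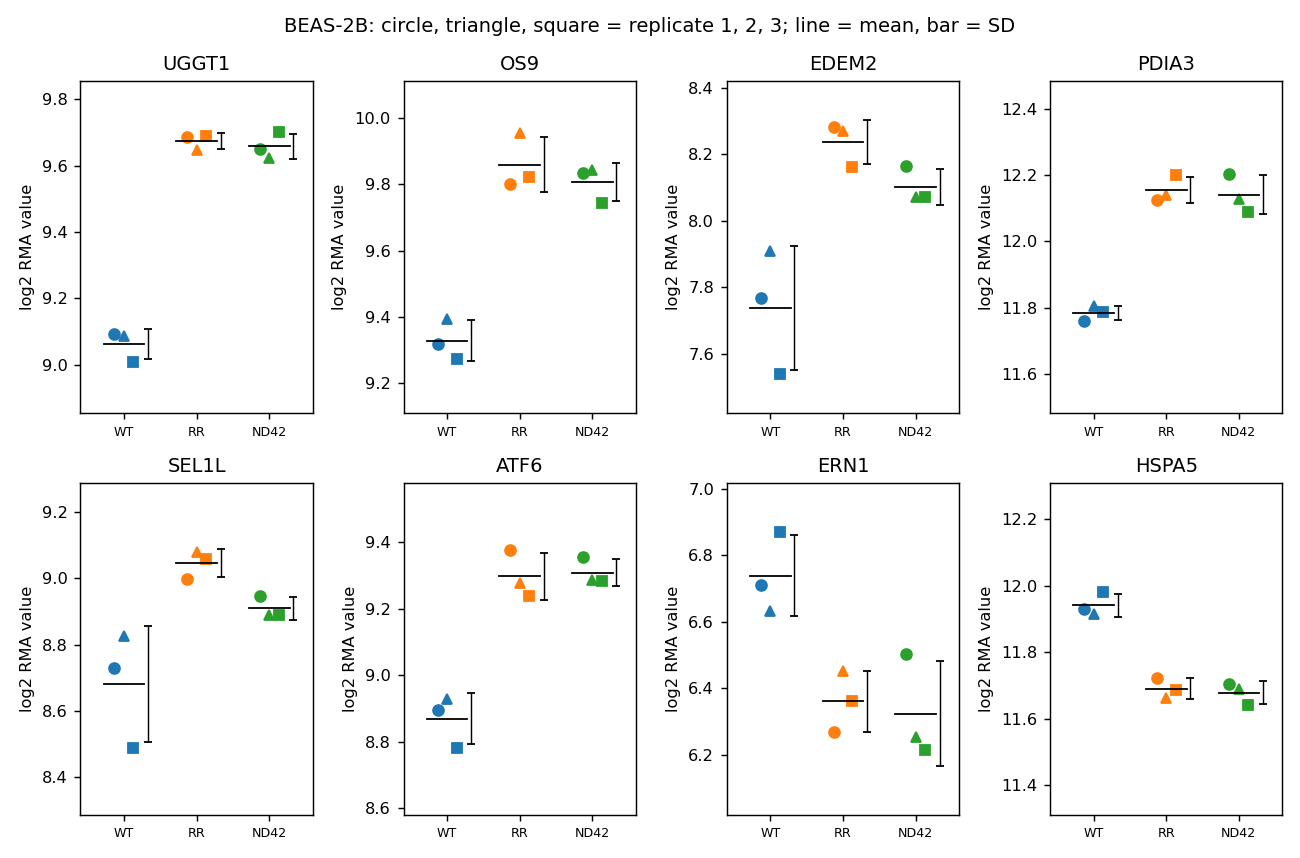
log2 RMA values of 8 ER genes on the 9 BEAS-2B arrays, by APE1 construct. Symbols are single arrays, the horizontal line is the group mean and the bar its SD over 3 arrays; the vertical axes differ and do not start at 0. UGGT1, OS9, EDEM2, PDIA3, SEL1L and ATF6 lie higher and ERN1 and HSPA5 lower in the mutants.

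The fibroblast markers moved with the same arrays: the summed linear level of the 5 genes was 3548 to 4387 in WT, 7542 to 8196 in RR and 8132 to 8434 in ND42, with COL1A1 higher by 1.06 and 1.16 and PDGFRB by 0.93 and 0.83. The sum was carried by COL1A1, whose mean was 12.5. DCN went the other way in RR (-0.35, adjusted p = 0.0201) and read -0.14 in ND42, and LUM (4.62) and COL3A1 (4.81) lay below the array medians. The endothelial marker PECAM1 was lower in both mutants (-0.69 and -0.35), and the leukocyte marker CD14 was higher (0.37 and 0.51). The epithelial list summed to 4381 to 4624, 4369 to 4710 and 4291 to 4551, with CDH1 higher by 1.16 and 1.07. The part of these differences in the ER results was not tested.

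**Figure D5:**
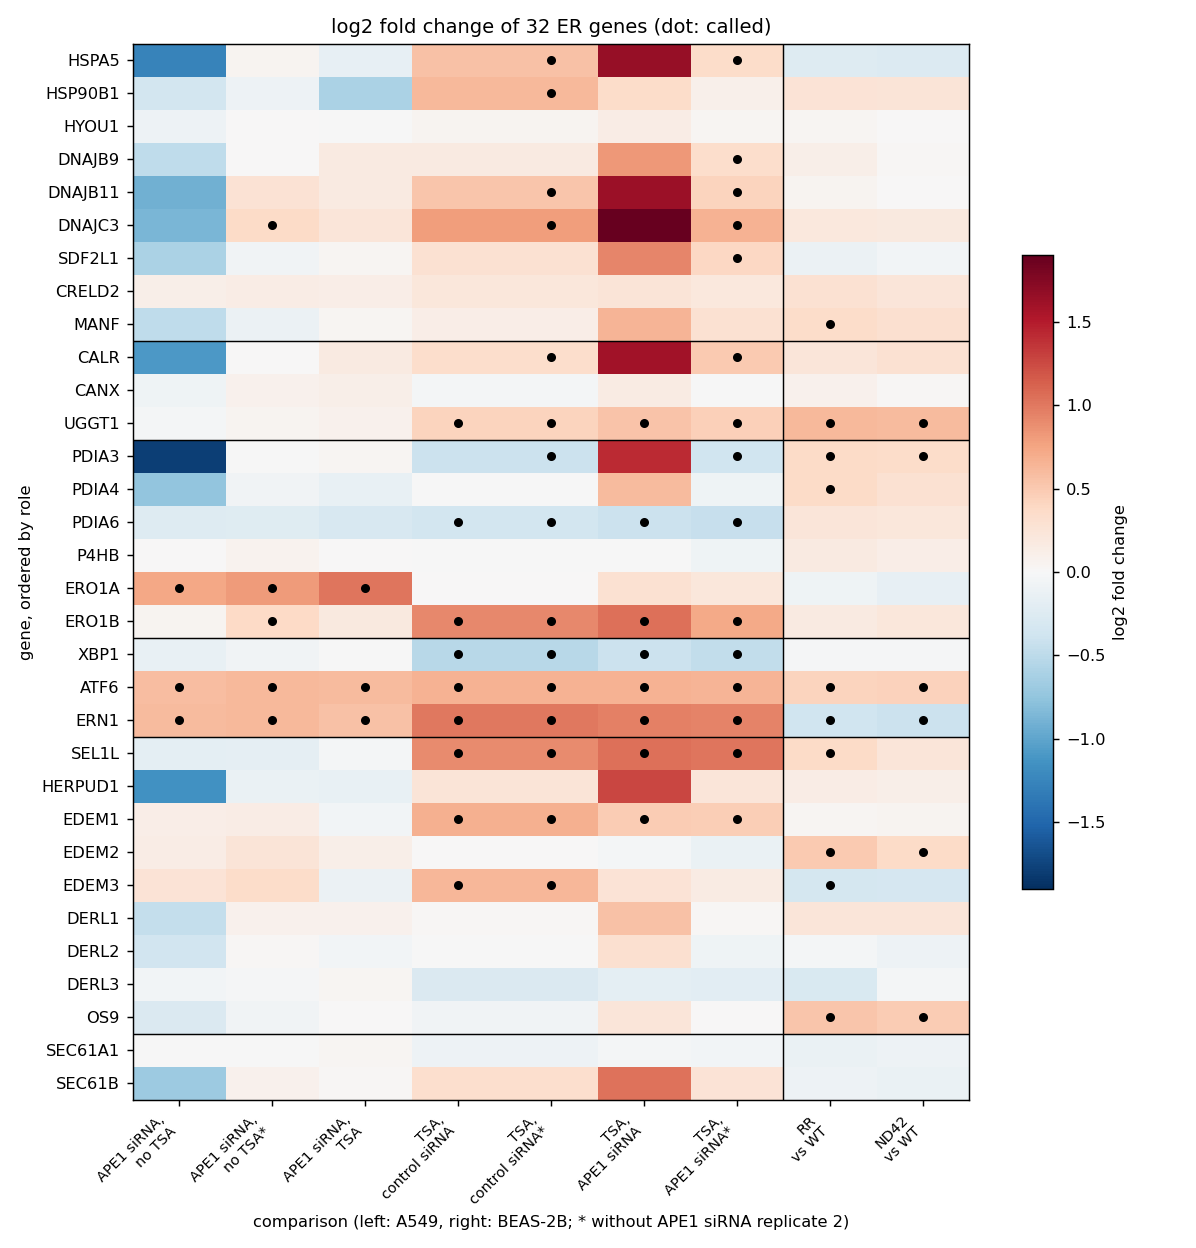
log2 fold changes of the 32 ER genes (rows, ordered by role: chaperones, lectin cycle, disulfide formation, sensors and XBP1, ERAD, translocon) in the comparisons (columns). Red is higher, blue lower and dots mark calls; starred columns leave out APE1 siRNA replicate 2. ATF6 and ERN1 are called in every column shown, ERN1 lower in BEAS-2B.

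Over the 6 comparisons of groups other than ND42 against RR, 15 of the 32 genes were called at least once, ATF6 and ERN1 in all 6. The matching shares of all genes were not counted, so these numbers have no background to be read against. Of the 17 others, 7 were called in A549 once APE1 siRNA replicate 2 was left out (CALR, DNAJB11, DNAJB9, DNAJC3, HSP90B1, HSPA5 and SDF2L1). Their mean levels, like those of all 32, lay between 7.50 and 12.6 in A549 and between 6.47 and 12.3 in BEAS-2B. At the probe set read, the remaining 10 were called in neither: CANX, CRELD2, HYOU1, P4HB, HERPUD1, DERL1, DERL2, DERL3 and the translocon subunits SEC61A1 and SEC61B. Of these, P4HB, CANX, DERL1, DERL2, DERL3 and SEC61A1 were each called at another probe set in RR, and some of them in other comparisons too.

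Further genes of the ER were counted as lists around the 32. The PERK branch and its targets in the integrated stress response had large differences in BEAS-2B. There, 7 of its 10 genes were lower and 2 higher in RR, and 8 lower and 1 higher in ND42, with medians of -0.88 and -0.76 and the background as above. ASNS, asparagine synthetase, read 10.64, 10.78 and 10.96 in WT, 7.45, 7.37 and 7.19 in RR and 7.50, 7.40 and 7.49 in ND42, an 11.0-fold difference in RR (-3.46, adjusted p = 3.61e-08) and -3.33 in ND42. TRIB3, a pseudokinase induced by ATF4, was lower by 2.22 and 2.20 log2 units, PPP1R15A, the stress-induced subunit of the eIF2α phosphatase, by 1.74 and 1.72, and DDIT3, the factor CHOP, by 1.51 and 1.45. ATF4 mRNA differed by -0.93 and -0.91. The sensor gene EIF2AK3 was higher by 0.55 and 0.43, with all mutant arrays (8.85 to 9.08) above all WT arrays (8.33 to 8.60). Of the other sensor genes, ERN1 was lower in both mutants and the direction of ATF6 depended on the probe set, as given above.

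In A549 the same list gave 0 calls for siRNA with all arrays, and 1 without replicate 2 (ATF3, higher by 0.42 without TSA, where 4.86% of all genes were higher). After TSA 3 of 10 were higher in control siRNA cells (ATF3, 1.33; DDIT3, 0.73; PPP1R15B, 0.57) and PPP1R15A was lower (-0.63), with the same 4 called in APE1 siRNA cells. Among all genes 11.9% were higher and 8.94% lower after TSA in control siRNA cells, and 15.3% and 9.77% in APE1 siRNA cells. Without replicate 2 ATF4 (-0.49) and TRIB3 (-0.43) were also lower, with 14.4% of all genes lower in control siRNA cells and 16% in APE1 siRNA cells. DDIT3 and PPP1R15A thus went in opposite directions after TSA in A549 and in the same direction in the BEAS-2B mutants.

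In the oligosaccharyltransferase and glycan trimming list, 7 of 16 genes were higher and 0 lower in RR (all genes: 14.1% and 11.9%) and 3 and 0 in ND42 (all genes: 10.3% and 7.5%), led by GANAB (0.52 and 0.46), the catalytic subunit of glucosidase II, and OST4 (0.54 and 0.46). After TSA GANAB was at -1.20 in control siRNA cells, a call only without APE1 siRNA replicate 2 (adjusted p = 5.52e-09). The list of disulfide and prolyl isomerases had 7 of 18 higher and 1 lower in RR and 6 and 1 in ND42. After TSA it had 5 and 2 in control siRNA cells (all genes: 11.9% and 8.94%), where the prolyl isomerases FKBP7 (1.66) and FKBP14 (1.62) and the thiol chaperone ERP44 (0.97) rose. FKBP9 was lower with APE1 siRNA (-0.67 and -0.82 with TSA) and higher in the mutants (0.76 and 0.72). In the list of ER export and retrieval 6 of 16 were higher and 1 lower in RR and 7 and 1 in ND42, with KDELR3, a receptor that returns escaped chaperones to the ER, at 0.94 and 0.88 and the coat subunits SEC31A (0.53 and 0.50) and SEC24D (0.72 and 0.96).

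Of 12 genes of the ATF6 and CREB3 family, 5 were higher in RR (NFYB by 0.82, CREBZF by 0.88, CREB3L4 by 0.54), against 14.1% of all genes higher and 11.9% lower. In ND42 4 were higher and 1 lower, against 10.3% and 7.5%. Of 20 translocon, signal peptidase and SRP genes, 1 was higher and 3 lower in each mutant, and 2 were higher and 2 lower after TSA in either siRNA group. Among all genes 11.9% were higher and 8.94% lower after TSA in control siRNA cells, and 15.3% and 9.77% in APE1 siRNA cells. SRP68 was lower with APE1 siRNA (-0.88 without and -0.75 with TSA). Of 21 further ERAD genes, 2 were higher and 3 lower after TSA in control siRNA cells, with FAM8A1, a cofactor of the SYVN1 complex, at 1.35 and the conjugating enzyme UBE2J1 at -0.90. Of 11 J proteins and exchange factors, 4 were higher and 0 lower there (DNAJC1 by 1.54, SDF2 by 0.88). The shares of all genes for these 2 lists were 11.9% higher and 8.94% lower. Without APE1 siRNA replicate 2, where 16.4% of all genes were higher and 14.4% lower after TSA in control siRNA cells, the counts were 7 higher and 2 lower of 18 for the isomerases, 6 and 2 of 11 for the J proteins, 6 and 1 of 16 for export, 3 and 4 of 21 for ERAD, 2 and 4 of 20 for the translocon list, 2 and 3 of 16 for the oligosaccharyltransferase list and 1 and 2 of 12 for the ATF6 family. The last 4 of these were near or below the background for higher calls. For siRNA without TSA (all genes: 4.86% and 4.35%), 5 export genes were then higher and 1 lower, and 3 ERAD genes higher.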

How the data were processed

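The deposited values were log2 expression that the authors made from Affymetrix HGU133 Plus 2.0 arrays with the affy package and RMA (background correction, quantile normalization, probe summary), and the 2 cell lines have separate value distributions (array medians 6.361 to 6.445 and 5.603 to 5.697). The authors' comparison tables, which hold log2 fold changes and p-values, were not used. The 62 control probe sets were left out. On the remaining 54613 probe sets, limma 3.58.1 in R 4.3.3 was fitted for each cell line with 1 mean per group, and p-values were adjusted over all of them (Benjamini-Hochberg). A call needed an adjusted p under 0.05 and a difference of at least 25%. Probe sets with 1 symbol (41091) were named by the platform annotation, 1801 carried several and 11721 none. The 33 genes and all lists were chosen with earlier results of these data known, so no list was tested as a set. Called genes, HSPA5, HSP90B1, DNAJB9, HERPUD1, XBP1 and SDF2L1 are named in every comparison, and up to 4 genes of each further list. The methods call the replicates biological, and 3 per group limit the precision. Other fits, normalizations, filters and probe rules and leaving out each array were tried. The fit was tested on simulated data. Fold changes from microarrays understate large differences where signals saturate or approach background.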

Additional observations from a re-analysis of the deposited data

How the results depend on the processing

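With all arrays, 3 genes were called for siRNA without TSA, 3 with TSA, 9 and 8 for TSA in control and APE1 siRNA cells, 10 for RR and 6 for ND42. A further quantile normalization gave 1 for siRNA with TSA, 3 and 5 for TSA and 5 for RR. With APE1 siRNA replicate 2 also left out, a setting chosen after seeing the data, it gave 5 for siRNA without TSA and 14 and 15 for TSA. Averaging all probe sets of a gene left 1 call for siRNA with and 1 without TSA. Fitting only the groups compared gave 15 for TSA in control siRNA cells, all 21 arrays in 1 fit gave 15 for TSA in APE1 siRNA cells, and no minimum fold gave 12 for ND42. Leaving out 1 array gave 3 to 5 (5 without APE1 siRNA replicate 2) and 3 to 4 for siRNA, 8 to 15 for each TSA comparison (15 without APE1 siRNA replicate 2, 13 in APE1 siRNA cells without replicate 3), 5 to 12 for RR and 5 to 11 for ND42. The causes were not tested.

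The main fit did not pair samples by replicate number. Residuals of same-numbered arrays correlated between -0.0793 and 0.264 in A549 (median 0.00564) and -0.0331 and 0.201 in BEAS-2B (median 0.0891). For differently numbered arrays the ranges were -0.164 to 0.0831 (median 0.000515) and -0.234 to 0.247 (median -0.0316). Whether a replicate number marks a shared run cannot be told from these ranges. With a replicate block the counts were 3, 3, 9, 8, 10 and 6, and 85 of 85 values of named genes stayed called or uncalled as before. Every group held the same replicate numbers, so the block could move only the p-values. The differences themselves were fixed in advance.

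Values of named genes that changed sign were mostly close to 0. Values after a further quantile normalization were 0.17 (siRNA without TSA) and 0.040 (siRNA with TSA) for XBP1, -0.0071 for HSP90B1 (TSA in APE1 siRNA cells), -0.13 for the XBP1 difference of TSA responses, -0.016 in RR and -0.049 in ND42 for DNAJB9, and, for ND42 against RR, 0.027 for HERPUD1, 0.026 for HSP90B1 and 0.019 for HSPA5. With APE1 siRNA replicate 2 also left out they were 0.066 for HSPA5 and 0.041 for XBP1 (siRNA without and with TSA) and -0.23 for the HSPA5 difference of TSA responses. Averaged probe sets gave 0.037 for XBP1 (siRNA with TSA), 0.23 for PDIA6 (TSA in APE1 siRNA cells), -0.048 for SEL1L and 0.33 for XBP1 in RR, 0.18 for XBP1 in ND42 and, for ND42 against RR, 0.059 for DNAJB9, 0.043 for HSP90B1 and -0.15 for XBP1. Median-centred arrays gave XBP1 at 0.036 in RR, 0.0051 in ND42 and -0.031 between them. Leaving out 1 array gave, for siRNA without TSA, -0.73 to 0.0039 for DNAJB9 and -1.94 to 0.049 for HSPA5. With TSA it gave -0.0082 to 0.073 for SDF2L1 and -0.053 to 0.069 for XBP1. For the difference of TSA responses it gave -0.015 to 1.55 for HERPUD1, -0.51 to 0.011 for HSP90B1 and -0.20 to 1.79 for HSPA5. In the mutants it gave -0.048 to 0.0084 (RR) and -0.064 to 0.042 (ND42) for XBP1 and -0.094 to 0.0032 for SDF2L1 (ND42), and between them -0.088 to 0.014 for HERPUD1, -0.12 to 0.11 for HSP90B1, -0.027 to 0.0065 for HSPA5 and -0.041 to 0.066 for XBP1.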
